A study of Caenorhabditis elegans with 4 samples.

Results

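The clustered miR-64 family comprises cel-mir-64, cel-mir-65, cel-mir-66 and cel-mir-229, which are neighbouring genes on chromosome III. The members were chosen by name and were 4 of the 148 names that the count table holds, and each name had 2 rows, so the family took up 8 of the 219 rows. Small RNA came from whole *C. elegans* larvae of the first larval stage (L1), synchronised by bleaching. There were 2 libraries of the wild-type strain N2 and 2 of animals that carried the mutant allele *pry-1(mu38)*. *pry-1* encodes an Axin, a scaffold protein that restrains WNT signaling, and small RNA counts contain no reading of its mRNA. The libraries held between 3284425 and 6651178 counts on known miRNAs. The labels do not say whether the libraries of a strain came from separate cultures, so p-values measure the spread between these libraries, which may be technical. In whole animals, fewer cells that make a miRNA and less of it per cell cannot be told apart.

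miRNAs are short RNAs that guide an Argonaute protein to partly complementary sites in mRNAs, where pairing of the bases near their 5′ end, the seed, does most of the recognition. A hairpin in a longer primary transcript is cut out and then diced into a duplex, of which one arm is usually retained and the other, the star arm, is degraded. Neighbouring hairpins can lie on a single primary transcript, and the level of each mature miRNA then also depends on how its own hairpin is processed and how long the product lasts.

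The mature sequence of miR-64, the most abundant member, is shown because its seed was used to search the listed miRNAs for others that share it. It is written 5′ to 3′ with the seed, bases 2 to 8, in capitals.
miR-64: uAUGACACugaagcguuaccgaa
Its length of 23 nt was that of 1 of the annotated arms of the hairpin, the 5p arm at 2172869 to 2172891 on chromosome III (WBcel235). Among the 157 known miRNAs with a mature sequence in the study's supplementary list, 1 had this seed as printed, and that was miR-64 itself. Only bases 2 to 8 of each printed sequence were compared, so a miRNA listed with another start or arm would be missed. The list does not hold cel-mir-65, cel-mir-66 or cel-mir-229, so this search could not show whether they share the seed. Sequences of the other members were not used here.

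The 4 hairpin genes lie on the plus strand of chromosome III in WBcel235, in the order mir-229, mir-64, mir-65 and mir-66. mir-229 extends from 2172452 to 2172566, mir-64 from 2172848 to 2172957, mir-65 from 2173002 to 2173101 and mir-66 from 2173108 to 2173206. The gaps between them are 281 bp, 44 bp and 6 bp, and the whole cluster spans 755 bp. All of it lies within intron 11 of the 27 introns of *gcn-1*, on the same strand. *gcn-1* is the worm's counterpart of GCN1, a ribosome-associated regulator of the translational response to amino acid starvation.

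In stretches of the table, the columns of the libraries were displaced against each other, so a printed row could combine counts of different miRNAs. As deposited, the 4 cells of the first cel-mir-64 row held 224980 and 76 counts in N2 replicates 1 and 2 and 128252 and 158657 in *pry-1(mu38)* replicates 1 and 2. When the count of N2 replicate 2 was taken from 1 row above, it was 229099, and the row then met the read total listed for the miRNA. No other displacement of that library by up to 3 rows met the total. The next checked miRNA after the family, miR-67, met its total at the same displacement, and the rows of cel-mir-65 and cel-mir-66 between them were read with it. The rows of cel-mir-229 stand between miR-228 and miR-230, both of which met their totals on their own rows, and were used as printed. cel-mir-65, cel-mir-66 and cel-mir-229 had no listed total, so their placement rests on these neighbours.

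Each name had an abundant row and a minor row. The table does not label which row is which arm, so the rows are called by their level. The abundant row of cel-mir-64 held 224980 and 229099 counts in N2, against 128252 and 158657 in *pry-1(mu38)*. That of cel-mir-65 held 59822 and 67812 counts in N2, against 29573 and 55837 in the mutant. Both are well counted in every library, and their counts are lowest in *pry-1(mu38)* replicate 1, the library with the smallest sum. The abundant row of cel-mir-66 held 9620 and 9847 counts in N2, against 5765 and 10395 in the mutant. That of cel-mir-229 held 6900 and 10229 counts in N2, against 5401 and 10670 in the mutant.

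Counts were scaled to CPM, the count per 1000000 counts of the library sum, corrected by edgeR's TMM factors, which set the bulk of the rows to equal levels. cel-mir-64 stood at 39948 and 33532 CPM in the N2 libraries, against 35577 and 33359 CPM in the *pry-1(mu38)* libraries. It was among the most abundant rows of every library, ranking between 6 and 10 of the 219. cel-mir-65 stood at 10622 and 9925 CPM in N2, against 8203 and 11740 CPM in the mutant. Its rank was 16 or 17, and its 2 mutant values enclosed both N2 values. cel-mir-66 stood at 1708 and 1441 CPM in N2, against 1599 and 2186 CPM in the mutant. cel-mir-229 stood at 1225 and 1497 CPM in N2, against 1498 and 2243 CPM in the mutant. These 2 members ranked between 28 and 36, and *pry-1(mu38)* replicate 2 was the highest library for both.

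**Figure D1:**
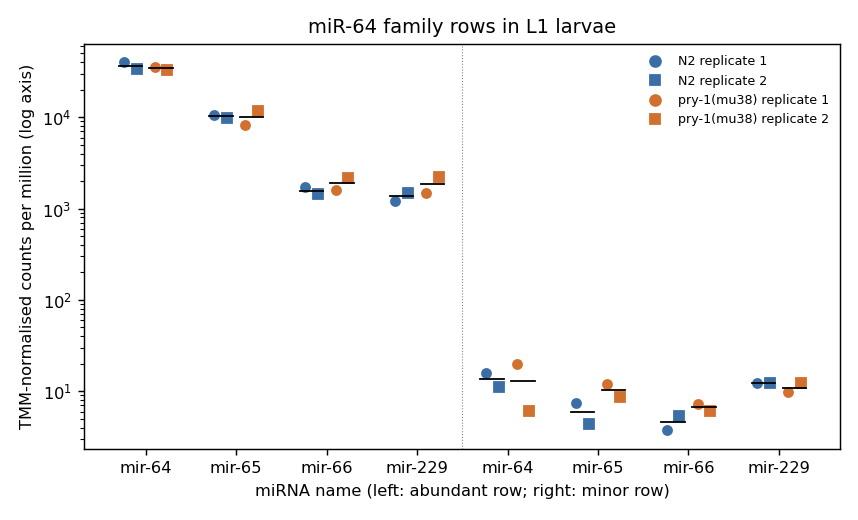
TMM-normalised CPM on a log axis for the abundant rows (left) and minor rows (right) of the 4 names, with 1 point per library and a black line at each strain's mean. cel-mir-64 lies at or above 33359 CPM in all libraries, and the minor rows lie at or below 20.0 CPM.

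The members of the cluster did not have similar read counts. Whether miRNAs of different sequence were captured equally in these libraries was not tested, and unequal capture would recur in every library. The order cel-mir-64, cel-mir-65 and then the other 2 held in each of the 4 libraries. Within a library, where no scaling enters, cel-mir-64 had between 2.84 and 4.34 times the counts of cel-mir-65. cel-mir-65 in turn had between 5.13 and 6.89 times the counts of cel-mir-66 and between 5.23 and 8.67 times those of cel-mir-229. cel-mir-66 and cel-mir-229 were not ordered beyond the spread between libraries, since their ratio was 1.39 and 0.963 in N2, against 1.07 and 0.974 in the mutant.

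**Figure D2:**
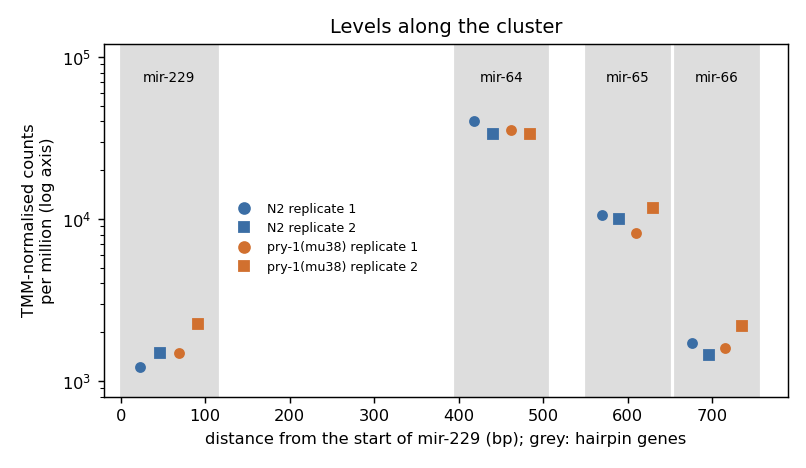
Levels of the abundant rows in TMM-normalised CPM on a log axis against the distance from the start of mir-229 in bp, with hairpin genes in grey and 1 point per library. The level is lowest at both ends of the cluster, and the adjacent hairpins of mir-65 and mir-66, 6 bp apart, differ by between 5.13 and 6.89 times.

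The log2 range of the mean levels in the cluster, from its highest to its lowest member, was 4.44, or 21.7-fold. miRNA genes on a strand with at most 10 kb between neighbours formed 10 other clusters with more than 1 gene in placed rows. Their log2 ranges ran from 2.33 to 11.24 with a median of 4.12, and 5 were narrower and 5 wider than that of the family. In 7 of the 10 all annotated genes had a placed row. Such a range can only widen as genes are added, and the family had 4 placed genes. All 5 narrower clusters had only 2 placed genes. The clusters of mir-36 to mir-39 (4 placed genes), of mir-80, mir-238 and mir-90 (3) and of mir-73 to mir-75 (3) had log2 ranges of 8.21, 4.57 and 8.07. Each of these was wider than that of the family. The other wider clusters had 2 placed genes each.

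cel-mir-64 made up most of the family's counts. Its abundant row held 74.6% (95% exact binomial interval 74.5 to 74.8%) and 72.2% (72.1 to 72.4%) in N2 replicates 1 and 2, and 75.8% (75.6 to 76.0%) and 67.3% (67.1 to 67.5%) in *pry-1(mu38)* replicates 1 and 2. The intervals cover the counting error of reads only and not the spread between libraries. Amplified reads lacking molecular identifiers can repeat a molecule, so the intervals may be too narrow even for counting error. The mutant libraries were the highest and the lowest of the 4, so the strains overlapped. The share of cel-mir-65 was 19.8% and 21.4% in N2, against 17.5% and 23.7% in the mutant. cel-mir-66 held 3.19% and 3.10% in N2, against 3.41% and 4.41% in the mutant, and here both mutant libraries were higher. cel-mir-229 held 2.29% and 3.22% in N2, against 3.19% and 4.53% in the mutant, which overlapped. Of the 6 ratios between pairs of abundant rows, 3 did not overlap between the strains and 3 did. These 6 ratios come from 4 rows and are not independent. No such share was computed over pairs of other rows, so this count has no background and is a description only. The ratio of cel-mir-65 to cel-mir-229 was 8.67 and 6.63 in N2, against 5.48 and 5.23 in the mutant, without overlap. That of cel-mir-65 to cel-mir-66 was 6.22 and 6.89 in N2, against 5.13 and 5.37 in the mutant, likewise without overlap. The ratio of cel-mir-64 to cel-mir-66 was 23.4 and 23.3 in N2, against 22.2 and 15.3 in the mutant, also without overlap but with the mutant libraries further from each other than the first was from N2. The ratio of cel-mir-64 to cel-mir-229 overlapped, at 32.6 and 22.4 in N2, against 23.7 and 14.9 in the mutant, as did those of cel-mir-64 to cel-mir-65 and of cel-mir-66 to cel-mir-229. With 2 libraries against 2, an exact permutation test cannot give a p-value below 0.333, so such ratios are given without a test.

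**Figure D3:**
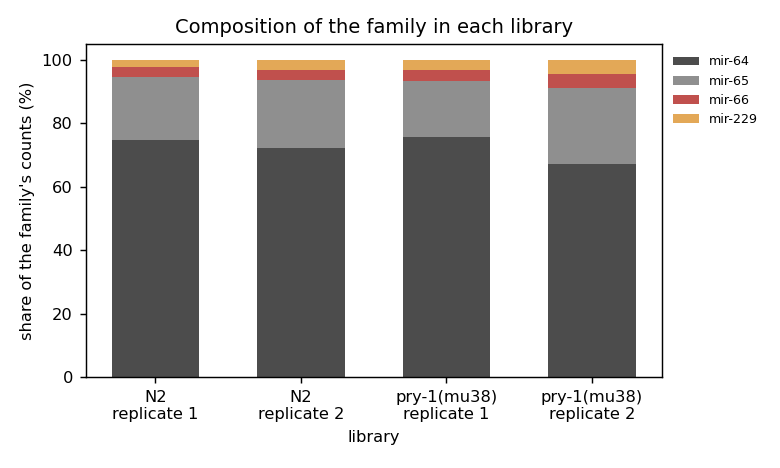
Share of the family's counts in percent held by the abundant row of each name, stacked for each of the 4 libraries (the minor rows are too small to show). cel-mir-64 takes between 67.3% and 75.8% of each bar.

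The minor rows were scarce. For cel-mir-64 they held 89 and 76 counts in N2, against 72 and 29 in *pry-1(mu38)*, between 0.0183% and 0.0561% of both rows. For cel-mir-65 there were 42 and 30 counts in N2, against 43 and 41 in the mutant, between 0.0442% and 0.145% of both rows. The minor row of cel-mir-66 held 21 and 37 counts in N2, against 26 and 29 in the mutant, or 0.218% to 0.449%. That of cel-mir-229 had 70 and 85 counts in N2, against 35 and 58 in the mutant, or 0.541% to 1.004%. Over the 46 names with 2 placed rows, the median share of the smaller row was 3.91%. Ordered from the lowest share upwards, cel-mir-64, cel-mir-65, cel-mir-66 and cel-mir-229 stood at places 2, 3, 9 and 12 of the 46. Each member was thus represented almost entirely by a single row.

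The comparison of *pry-1(mu38)* with N2 asks whether mutation of this Axin is accompanied by other miRNA levels in L1 animals. No member row passed the test. With the quasi-likelihood test of edgeR and p-values adjusted over the 145 rows tested (Benjamini-Hochberg), 0 of the 8 member rows and 0 rows in all (0%) had an adjusted p-value under 0.05. At an unadjusted p-value under 0.05 there were 15 rows in all (10.3%) and again 0 member rows. DESeq2's Wald test called 1 row and edgeR's exact test called 2, none of them a member. The paper itself reported miRNAs outside this family as differentially expressed in the mutant, with similar trends by qRT-PCR. Only placed rows were tested here, so the count over all rows is not a repeat of the paper's result. 3 member rows were higher in both mutant libraries than in both N2 libraries and 1 was lower, against 17.2% and 25.5% of all rows tested, and the other 4 overlapped. This tally is of TMM-scaled values. As shares of all counts, without TMM, 4 member rows were higher in both mutant libraries, 0 were lower and 4 overlapped, against 24.1% higher and 18.6% lower among all rows tested. The median log2 fold change was 0.11 over the 8 member rows and -0.06 over all rows tested, and the median of its absolute value was 0.22 against 0.35.

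For cel-mir-64 the mean level was 36740 ± 4537 CPM in N2 and 34468 ± 1568 CPM in *pry-1(mu38)* (n = 2 libraries each, ± SD). This log2 fold change of -0.09 had a standard error (SE) of 0.25 and an edgeR adjusted p of 0.973, and the strains overlapped. cel-mir-65 had 10274 ± 493 CPM in N2 and 9972 ± 2501 CPM in the mutant (SD, n = 2), and its log2 fold change was -0.04 (SE 0.28, edgeR adjusted p = 0.978). Both signs depend on the scaling, and the log2 fold change was 0.15 for cel-mir-64 and 0.18 for cel-mir-65 with upper-quartile normalization. For cel-mir-66 it was 0.27 (SE 0.28, edgeR adjusted p = 0.761), and its strains overlapped after TMM. As a share of all counts it held 0.145% and 0.152% in N2, against 0.176% and 0.223% in the mutant, without overlap. cel-mir-229 had the largest value of the abundant rows, 0.46 (SE 0.31, edgeR adjusted p = 0.570). Both mutant libraries of cel-mir-229 were above both N2 libraries, but the nearest pair was separated only by 1498 against 1497 CPM. The values of the minor rows were 0.79 for cel-mir-65, 0.53 for cel-mir-66, -0.06 for cel-mir-64 and -0.18 for cel-mir-229, with standard errors between 0.35 and 0.65 and adjusted p-values in edgeR between 0.467 and 0.978. The signs of the last 2 turn with upper-quartile normalization, to 0.23 and 0.05.

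**Figure D4:**
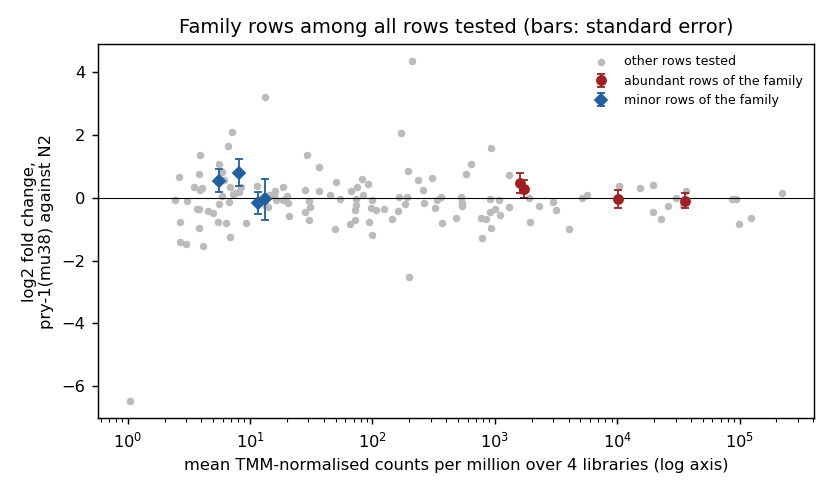
Log2 fold change in *pry-1(mu38)* over N2 under TMM scaling against mean TMM-normalised CPM (log axis) for the 145 rows tested, with the abundant (circles) and minor (diamonds) rows of the family and their standard errors. The abundant rows lie between -0.09 and 0.46, where the negative values, of cel-mir-64 and cel-mir-65, become 0.15 and 0.18 with upper-quartile normalization.

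The choice of scaling moved all rows together. The median log2 fold change of all rows was -0.06 with TMM, 0.05 with DESeq2's size factors, 0.11 with library sums alone and 0.17 with upper-quartile normalization. Relative to that median, cel-mir-64 lay between -0.03 and -0.02 and cel-mir-65 between -0.00052 and 0.02, where the negative value came from library sums alone. cel-mir-66 lay between 0.32 and 0.33 above the median and cel-mir-229 between 0.48 and 0.52 above it under these scalings.

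**Figure D5:**
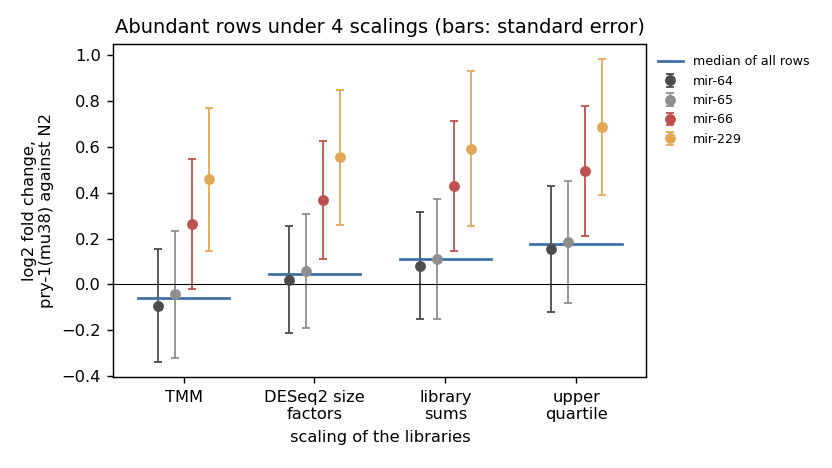
Log2 fold change in *pry-1(mu38)* over N2 with standard errors for the abundant rows under 4 scalings, and the median of all rows tested as a blue line. cel-mir-64 and cel-mir-65 change from negative with TMM to positive with the other 3 scalings and stay close to the blue line in each, while cel-mir-66 and cel-mir-229 lie above it.

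Reads that fit several members could be divided between their rows, and the handling of such reads is not given in the sources used here, so the 8 rows were also summed. The sum was 53543 and 46429 CPM in N2, against 46926 and 49562 CPM in *pry-1(mu38)* after TMM, and the mutant values lay between the N2 values. Entered as 1 row in place of the 8, its log2 fold change was -0.05 (SE 0.23, edgeR adjusted p = 0.979), which was 0.19 with upper-quartile normalization. An exact two-sided permutation test over the libraries gave p = 1, where 0.333 is the smallest possible. As a share of all counts, without TMM, the family held 4.53% and 4.89% in N2, against 5.15% and 5.07% in the mutant, and both mutant libraries were then higher. Relative to the median of all rows under each of the 4 scalings, the log2 fold change of the sum lay between 0.00488 and 0.02.

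The libraries of a strain were also compared with each other. For cel-mir-64, the log2 ratio of replicate 2 to replicate 1 was -0.25 in N2 and -0.09 in *pry-1(mu38)*. cel-mir-65 gave -0.10 and 0.52, cel-mir-66 gave -0.25 and 0.45, and cel-mir-229 gave 0.29 and 0.58. Over the 49 rows with at least 1000 counts in all 4 libraries, the median absolute log2 ratio was 0.30 in N2 and 0.40 in the mutant. All 4 abundant rows were thus within 0.30 of their replicate in N2, and in the mutant cel-mir-64 was closer than the median row and the other 3 further apart. The minor row of cel-mir-64 had the widest replicate ratio of the family, -1.71 in *pry-1(mu38)*, on counts of 72 and 29.

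The rows whose pattern over the 4 libraries was nearest to that of cel-mir-64 were rows of cel-mir-86, cel-mir-82 and cel-mir-74. Likeness was the Euclidean distance between centred log2 CPM values over the 4 libraries, among 48 other rows with at least 1000 counts in each. The distance was 0.06 for cel-mir-86, 0.21 for cel-mir-82 and 0.25 for cel-mir-74. cel-mir-86 stood at 3422 and 2886 CPM in N2, against 2922 and 2773 CPM in the mutant. No other member of the cluster was among these 3 rows. The abundant row of cel-mir-65 stood at place 16 of the 48 (distance 0.45), that of cel-mir-66 at place 20 (0.51) and that of cel-mir-229 at place 38 (0.81).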

How the data were processed

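Small RNA libraries of 2 N2 and 2 *pry-1(mu38)* L1 samples were examined. Unnormalised read counts for each miRNA row and library were deposited by the authors, assigned to known miRBase miRNAs with miRDeep2 on WBcel235. The submitters' processing notes also name BWA and DESeq, while versions and trimming are not given in the sources used here. Every column had a sample (0 without one), and depth was between 3284425 and 6651178 counts.

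Rows were placed by the read totals in the study's supplementary list, with displacements of up to 3 rows. Of 126 listed names, 88 were placed, of which 30 met the total on their own row, 53 met it with displaced counts and 5 came within 0.1% of it, and 59 further rows lay between placed rows of equal displacement. The placed rows together held 96.3 to 97.8% of each library's counts. Names that shared all counts were then entered once, so 1 row was left out and 146 rows remained, which hold a smaller share. Counts were only moved between names, never altered. The members and lists were chosen with earlier results of these data known.

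Counts were compared with edgeR 4.0.16 in R 4.3.3 (library sums over all rows, TMM, filterByExpr with a minimum of 10 counts, glmQLFit and glmQLFTest, two-sided, Benjamini-Hochberg adjustment over 145 rows), without covariates. The TMM factors were 0.847, 1.05, 1.10 and 1.02 for N2 and *pry-1(mu38)* replicates 1 and 2. The standard error was the size of the log2 fold change divided by the square root of F. The summed family was fitted with the same TMM factors. The placement was tried on simulated tables with known displacements, and accuracy was required only of rows placed by a total. Rows placed between others, as for cel-mir-65, cel-mir-66 and cel-mir-229, were not held to it. The edgeR test was tried on simulated counts with less dispersion than was estimated here, so that trial does not give its power in these data. Shares used exact Clopper-Pearson intervals (scipy 1.17.1). Alternatives changed the scaling, filter, test (DESeq2 1.42.0 included), replicate block, placement and libraries, and the removal of miR-2209c was added after seeing the data. Genes came from the Ensembl annotation of WBcel235. Named rows were all member rows, any listed miRNA sharing the seed of miR-64, the 3 rows nearest in pattern to cel-mir-64, and names that bear on a member's placement.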

Additional observations from a re-analysis of the deposited data

How the results depend on the processing

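The abundant rows of cel-mir-66 and cel-mir-229 kept a positive log2 fold change under every alternative that gave them a row. For cel-mir-66 this includes 1.08 in the rows as deposited, where the 37 counts of N2 replicate 2 are those of its minor row. No member row or family sum had an adjusted p-value under 0.05 under any alternative that used all libraries. For cel-mir-64 the log2 fold change of -0.09 became 0.0206 with DESeq2's size factors and with DESeq2's Wald test, 0.0819 with library sums alone and 0.15 with upper-quartile normalization. It was 0.0423 with only the rows placed by a listed total, met or within 0.1%, and 0.72 in the rows as deposited. For cel-mir-65, -0.04 became 0.0577 with DESeq2's size factors and its Wald test, 0.11 with library sums, 0.18 with upper-quartile normalization and 0.84 in the rows as deposited. The family sum of -0.05 became 0.0581 with DESeq2's size factors and Wald test, 0.12 with library sums and 0.19 with upper-quartile normalization. It was 0.0423 with rows placed by a listed total (which leave only cel-mir-64) and 0.44 in the rows as deposited. Among minor rows, cel-mir-64 became 0.0796 with DESeq2's size factors, 0.0839 with its Wald test, 0.15 with library sums, 0.23 with upper-quartile normalization and 0.00389 with at least 10 counts in every library. The minor row of cel-mir-229 became 0.0526 with upper-quartile normalization, and that of cel-mir-65 became -6.34 in the rows as deposited. There the count of N2 replicate 2 is that of another row, as it is for the deposited values of cel-mir-64, cel-mir-65 and cel-mir-66. The reversals of abundant rows and of the sum under another scaling went with a shift of the median of all rows from -0.06 to as much as 0.17. For the reversals with fewer rows the cause was not tested.

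With the replicate block, 0 rows were past the threshold, 21 had an unadjusted p-value under 0.05, and the family sum was at -0.05. Equal replicate numbers are not described as shared cultures or days, and deviations of equally numbered libraries correlated at 0.233 over 145 rows. The number of rows past the threshold was 1 with library sums, with DESeq2's Wald test and with only the rows placed by a listed total. It was 2 with edgeR's exact test, and 0 in the other alternatives that used all libraries.

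With 1 library left out in turn, the single library of its strain was assumed to vary like the others, and between 0 and 7 rows were past the threshold, 7 without *pry-1(mu38)* replicate 1 and 3 without *pry-1(mu38)* replicate 2. Log2 fold changes then lay from -0.14 to 0.16 for cel-mir-64 (negative only without *pry-1(mu38)* replicate 1), from -0.13 to 0.21 for cel-mir-65 (negative only without *pry-1(mu38)* replicate 2), from 0.23 to 0.47 for cel-mir-66, from 0.32 to 0.91 for cel-mir-229 and from -0.0123 to 0.15 for the family sum. It ranged from -1.14 to 0.78 for the minor row of cel-mir-64 from 0.55 to 1.23 for that of cel-mir-65, from 0.29 without N2 replicate 1 to 1.13 without N2 replicate 2 for that of cel-mir-66, and from -0.18 to 0.12 for that of cel-mir-229.

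The share of cel-mir-64 in the family's counts of N2 replicate 2, 72.2%, would be 0.0862% in the rows as deposited, 0.0726% and 0.252% with that library displaced by 3 and 2 rows up, and 77.0%, 0.101% and 10.1% by 1, 2 and 3 rows down, none of which met the listed total. Counts of 21 to 89 in the minor rows limit their precision.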
